A study of Mus musculus with 4 samples.

Results

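The 38 genes described here encode the proteins that make fatty acids and build them into phospholipid and stored triglyceride in alveolar type 2 (AT2) cells. They were taken as the rows of the count table whose symbol was on a list of the pathway, and all 38 of the 38 listed were found among the 40092 genes of the table. All 38 also passed the filter on low counts and were among the 16661 genes tested. None of the measured values entered the choice of a row, although the list itself was drawn up with earlier results of these data known.

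The counts came from RNA-seq of AT2 cells sorted by their GFP signal from mouse lung on day 14 after bleomycin, a drug that injures the alveolar epithelium. The study asked what loss of ALKBH5, an enzyme that removes the N6-methyladenosine mark from RNA, does to AT2 cells in the injured lung. The Ctrl group was Alkbh5flox/+; Sftpc-CreERT2; Rosa26-mTmG and the A5-CKO group was Alkbh5flox/flox; Sftpc-CreERT2; Rosa26-mTmG, with 2 libraries in each. Both groups were littermates, carried the same Cre driver and reporter, and received tamoxifen and bleomycin, and the Ctrl mice carried 1 floxed allele of their own. No uninjured mice and no Cre-negative mice were among these libraries. The Cre is expressed from Sftpc, a surfactant gene of AT2 cells, and GFP marks a cell that has recombined the reporter and its descendants, so the sorted cells can include progeny that have left the AT2 state. Whether a library came from 1 animal or from several, and the age and sex of the mice, were not given in the sources used here, and p-values measure only the spread between these 4 libraries.

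AT2 cells secrete surfactant, the lipid and protein film that lowers surface tension in the alveolus, and its main lipid is a phosphatidylcholine carrying saturated palmitate chains. Palmitate is built from cytosolic acetyl-CoA by way of malonyl-CoA, desaturated or elongated, activated to acyl-CoA, and placed on glycerol-3-phosphate. The resulting diacylglycerol receives choline through the Kennedy pathway to give phosphatidylcholine, whose chains are exchanged by remodelling acyltransferases, or a further acyl chain to give triglyceride. SREBP-1, the product of Srebf1, is a membrane-bound transcription factor that is cleaved to enter the nucleus, where it drives transcription of many of these enzymes.

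The 4 libraries held between 18144865 and 20811757 counts, and 3 counts, taken as the limit of detection, corresponded to 0.128 to 0.177 CPM (counts scaled to a common TMM-adjusted library size). This limit covers counting error only. Alkbh5 itself was at 81.6 CPM (Ctrl 1) and 152 CPM (Ctrl 2), against 19.3 CPM (A5-CKO 1) and 36.5 CPM (A5-CKO 2), so that the groups did not overlap. Its log2 fold change in A5-CKO was -2.06 (SE 0.46, edgeR quasi-likelihood test, unadjusted p = 0.00279, Benjamini-Hochberg adjusted p = 0.528).

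The AT2 label was checked against 10 markers, all of which passed the filter. Their summed level was 54524 CPM and 78134 CPM in Ctrl 1 and 2, against 40610 CPM and 33280 CPM in A5-CKO 1 and 2. By genotype 6 of the 10 were separated on the lower side, against 23.6% of all tested genes. All 10 averaged above 50 CPM per kb of merged exon, and 60.1% of tested genes at or above that level were separated on the lower side. In bulk libraries, fewer cells of a type and less RNA per cell cannot be told apart. Markers of transitional cells summed to 3808, 1697, 2535 and 4098 CPM in the same order, and their median log2 fold change was 0.24. Of these 10 markers 3 were separated on the higher side, against 20.2% of all tested genes. AT1 markers summed to between 2830 and 3446 CPM. Of the 8 AT1 markers tested, 4 (Hopx, Cav1, Clic5 and Akap5) were separated on the higher side and 1 (Aqp5) on the lower, with a median log2 fold change of 0.60, and Ager and the main copy of Pdpn, which has another on a fix patch, were at or near 0. Macrophage markers differed within both groups. Summed over 10 macrophage markers the level was 2594 CPM in Ctrl 1 and 1887 CPM in A5-CKO 2, against 471 CPM in Ctrl 2 and 315 CPM in A5-CKO 1. Most of the largest sums came from Chil3, at 2082 CPM in Ctrl 1 and 1252 CPM in A5-CKO 2, against 308 CPM in Ctrl 2 and 112 CPM in A5-CKO 1. The 8 mesenchymal and lipofibroblast markers summed to 1023 CPM in A5-CKO 2 and to between 97.2 and 399 CPM in the other 3 libraries. B and plasma cell markers summed to 2140 and 2293 CPM in Ctrl 1 and A5-CKO 2, against 361 and 511 CPM in Ctrl 2 and A5-CKO 1. Airway markers summed to between 1135 and 2532 CPM, endothelial markers to at most 153 CPM and adipocyte markers to at most 2.27 CPM.

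**Figure D1:**
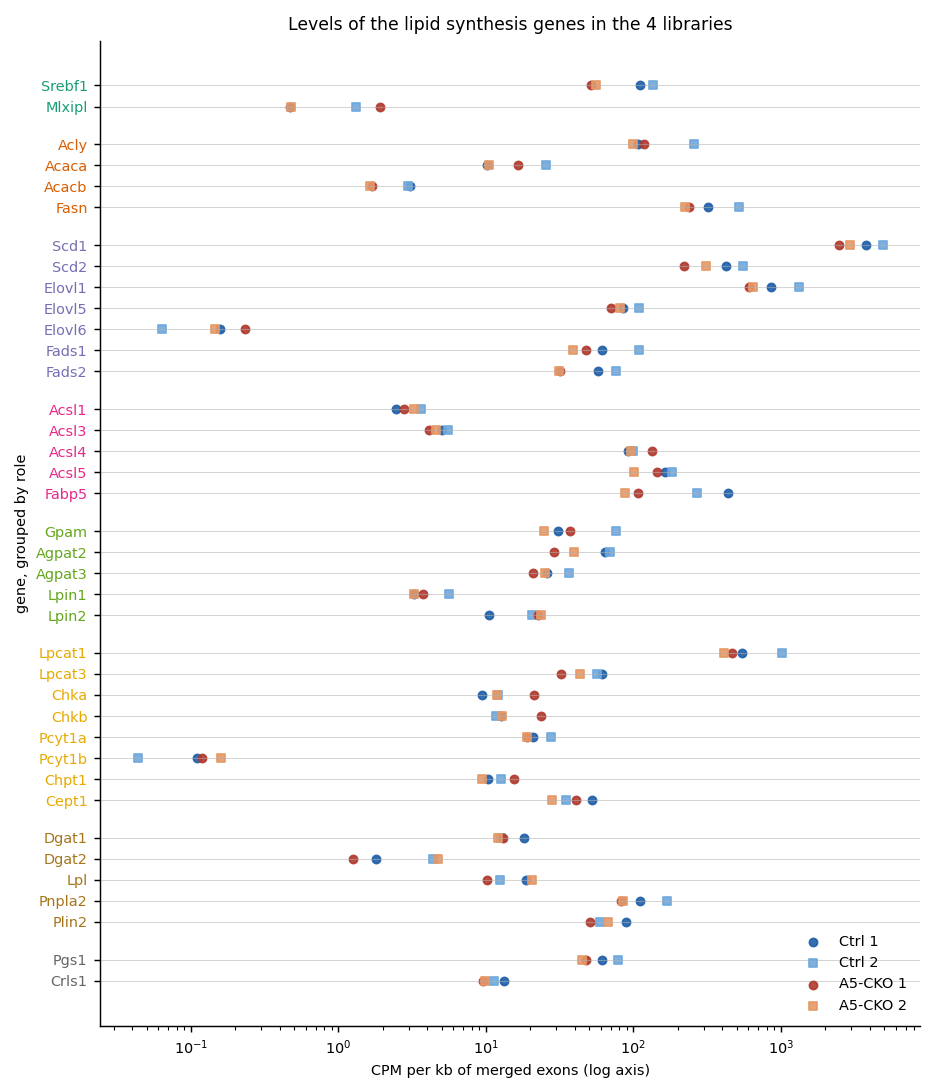
Level of each of the 38 genes in each of the 4 libraries, in CPM per kb of merged exon on a log axis, grouped by role. Scd1 stands highest, at 2491 to 4931 CPM per kb, and Pcyt1b and Elovl6 lie lowest.

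Levels of the pathway spanned more than 4 orders of magnitude. Per kb of merged exon, Scd1 was the highest of the 38. It had 3770 and 4931 CPM per kb in Ctrl 1 and 2 and 2491 and 2919 CPM per kb in A5-CKO 1 and 2. On this scale it ranked number 6 of the tested genes that had a merged exon length. In the same order of libraries, Elovl1 followed at 855, 1328, 611 and 649 CPM per kb, then Lpcat1 at 548, 1017, 462 and 409 CPM per kb. The lowest library for Scd1 exceeded the highest for Elovl1, whereas Elovl1 and Lpcat1 overlapped. Neighbours below that were not separated either. Scd2 stood at 422, 557, 221 and 312 CPM per kb, Fasn at 319, 521, 238 and 222 CPM per kb, and Fabp5 at 438, 269, 107 and 87.8 CPM per kb, so the order of these genes changed from library to library. At the other end, Pcyt1b averaged 0.108 CPM per kb and Elovl6 0.149 CPM per kb. The 38 genes together took 3.44% and 4.37% of all counts in Ctrl 1 and 2, against 2.87% and 3.10% in A5-CKO 1 and 2, and Scd1 alone made up 47.0% to 52.0% of those.

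The main comparison set A5-CKO against Ctrl. No member passed an adjusted p of 0.05 by edgeR's quasi-likelihood test, and neither did any of the 16661 genes tested (0%). With DESeq2 at its default filtering, 59 genes passed (0.385% of 15306) and 1 of them was a member, the fatty acid carrier Fabp5. At an unadjusted p under 0.05 in edgeR, 6 of the 38 were lower in A5-CKO, against 4.71% of all tested genes, and 0 were higher, against 4.48%. The 6 were Srebf1, Acacb, Fads1, Fads2, Fabp5 and Agpat2, and each had an adjusted p of 0.528 in edgeR.

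Separation between the libraries was more common in the lower direction. Each A5-CKO library lay below each Ctrl library for 20 of the 38 members (52.6%), where 23.6% of all tested genes did. Both lay above for 3 members, Lpin2, Chkb and Pcyt1b (7.89%), where 20.2% of all tested genes did. For the remaining 15 the groups overlapped. In the same libraries 4 of the 8 AT1 markers tested were higher in both A5-CKO libraries, against that 20.2%, and 1 was lower. The summed AT1 markers overlapped between the groups, at 3225 and 3257 CPM in Ctrl and 2830 and 3446 CPM in A5-CKO. The part of AT1 markers or cells in the result was not tested. The median log2 fold change was -0.39 over the members and -0.02 over all tested genes, and single members ranged from -1.85 for Fabp5 to 0.85 for Pcyt1b. With 2 libraries against 2, an exact two-sided permutation test of a single gene cannot go below p = 0.333.

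Highly expressed genes as a whole shared part of this shift. Of the 1092 tested genes at or above 50 CPM per kb, a level chosen after the values were seen, 60.1% were lower in both A5-CKO libraries and 2.93% were higher in both, and their median log2 fold change was -0.56. Among the 16 members above that level, 13 were lower in both (81.2%), 0 were higher, and the median was -0.77. The 22 members under that level held 7 that were lower in both (31.8%) and 3 that were higher in both, with a median of -0.29, against 21.6%, 20.5% and 0.01 for the 14145 tested genes there. Relative to genes of similar level, the excess of lower members was therefore smaller than the comparison with all tested genes gives.

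**Figure D2:**
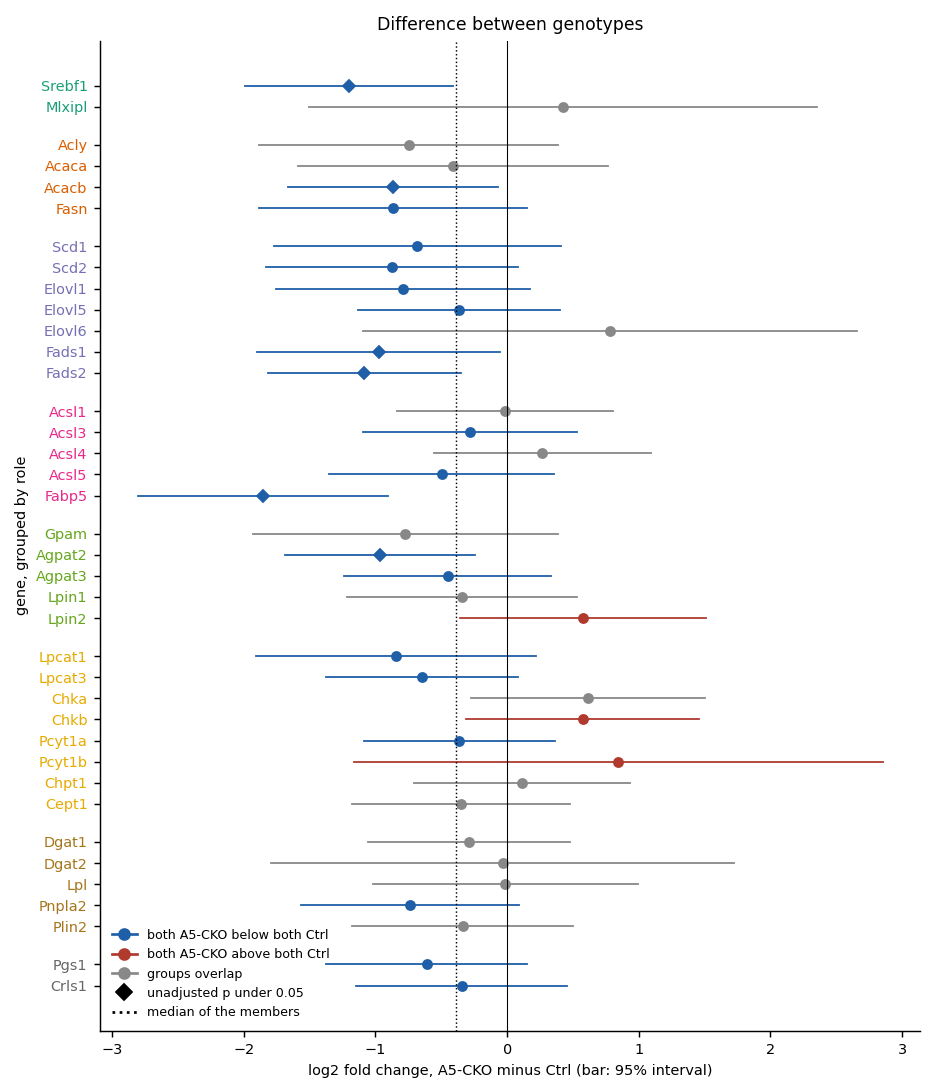
Log2 fold change of A5-CKO against Ctrl for each member with its 95% interval, ordered by role. The 6 intervals that leave out 0 all lie on the lower side, with Fabp5 at -1.85, and the genes listed higher have intervals that span 0.

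Scaling moved the count of separated genes. With total counts alone as the scale, 13 members lay below and 6 above, against 10.1% and 34.8% of all tested genes, and the median of the members was -0.06 where that of all genes was 0.30. Upper-quartile factors gave 18 below and 5 above, against 18.8% and 24.3%. Under the TMM factors 48.8% of the unadjusted calls over all genes were higher in A5-CKO, under the total counts 90.9% and under the upper-quartile factors 66.8%. On each of these scales the median of the members lay below that of all tested genes, by a similar distance.

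The transcription factors come first. Srebf1, which encodes the lipogenic regulator SREBP-1, stood at 622 and 767 CPM in Ctrl 1 and 2, against 290 and 313 CPM in A5-CKO 1 and 2. Both A5-CKO libraries were low and close together, and the groups did not overlap. The means were 694 ± 103 CPM and 302 ± 16.2 CPM (SD, n = 2 each), and the log2 fold change was -1.20 (SE 0.33, 95% interval -1.99 to -0.41, edgeR unadjusted p = 0.00891). It was past that threshold under every scaling of the 4 libraries run, and with either Ctrl library left out, but not without A5-CKO 1 or without A5-CKO 2. Mlxipl, the carbohydrate-responsive factor ChREBP, was rare at 2.60, 7.33, 10.7 and 2.65 CPM, and its libraries overlapped. Srebf1 lies on chromosome 11 (GRCm38.p6, 60199084 to 60224186), and its span ends 313496 bases from that of Alkbh5 on the same chromosome (60537683 to 60558512). The span of Srebf1 overlaps that of Rai1, and since the strand setting of the counting was not given in the sources used here, reads of overlapping genes may be shared between them. The spans of 22 of the 38 members overlap that of another RefSeq gene, Elovl1 that of Cdc20, Lpcat3 that of Emg1 and Pgs1 that of Dnah17 among them.

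The DNA just before the start of these genes is shown for the regulator, for 2 enzymes whose libraries did not overlap on the lower side and for the 1 gene of the diacylglycerol branch that was higher in both A5-CKO libraries. Each is the 250 bases before a RefSeq start on GRCm38.p6, written 5′ to 3′ on the strand of the gene. Capitals mark a CCAAT box (CCAAT), a GC box (GGGCGG), an E-box (CACGTG) or a sterol regulatory element core (CACCCCAC), each on either strand. Of the 3 windows of Srebf1 and of Lpin2, 1 is shown.
Srebf1, minus strand, chr11:60210472-60210721: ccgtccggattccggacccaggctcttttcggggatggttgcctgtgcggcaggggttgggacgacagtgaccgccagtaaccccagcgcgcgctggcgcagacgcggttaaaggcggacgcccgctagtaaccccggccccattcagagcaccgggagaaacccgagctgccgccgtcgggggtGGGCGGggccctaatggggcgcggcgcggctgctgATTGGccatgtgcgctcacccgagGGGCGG
Fasn, minus strand, chr11:120824548-120824797: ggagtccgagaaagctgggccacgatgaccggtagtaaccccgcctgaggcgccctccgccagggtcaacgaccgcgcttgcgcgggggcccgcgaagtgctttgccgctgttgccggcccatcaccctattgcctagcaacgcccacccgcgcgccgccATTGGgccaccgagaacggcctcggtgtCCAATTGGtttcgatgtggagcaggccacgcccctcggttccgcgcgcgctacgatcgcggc
Fads2, minus strand, chr19:10101504-10101753: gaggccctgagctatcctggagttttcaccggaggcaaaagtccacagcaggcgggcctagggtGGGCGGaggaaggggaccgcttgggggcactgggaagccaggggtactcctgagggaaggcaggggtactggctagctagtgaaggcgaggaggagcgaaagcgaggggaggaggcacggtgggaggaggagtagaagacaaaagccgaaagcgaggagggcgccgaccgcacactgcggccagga
Lpin2, plus strand, chr17:71183282-71183531: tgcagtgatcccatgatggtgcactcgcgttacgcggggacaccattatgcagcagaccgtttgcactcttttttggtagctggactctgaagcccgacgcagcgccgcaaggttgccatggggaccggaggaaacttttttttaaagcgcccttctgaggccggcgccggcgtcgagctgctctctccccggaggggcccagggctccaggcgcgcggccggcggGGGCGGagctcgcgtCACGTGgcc

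The Fasn window held 3 CCAAT boxes, 2 of them overlapping on opposite strands. The Srebf1 window held 1 CCAAT box and 2 GC boxes, the Fads2 window 1 GC box, and the Lpin2 window 1 GC box and 1 E-box. Windows were found for 31 of the 38 members, 45 windows in all. Of these, 42.2% held a CCAAT box, against 33.8% of the 32851 windows of all genes, and 55.6% held a GC box, against 32.7%. Among windows of tested genes the GC box share was 51.4% and that of CCAAT 33.7%. An E-box stood in 8.89% of member windows, in 6.02% of all windows and in 7.70% of those of tested genes. For the sterol regulatory element core the shares were 8.89%, 2.58% and 2.80%. For the members these were 4 windows of Acsl1, Gpam and Pcyt1a, and the Pcyt1a windows that held it overlap and share the same core. A match of letters is a description of the window, and its use in these cells was not measured.

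Palmitate synthesis comprised 4 members. Of these 1 was lower at an unadjusted p under 0.05, against 4.71% of all tested genes. In both A5-CKO libraries 2 were lower (50%), against 23.6%. The median log2 fold change was -0.81, against -0.02 for all tested genes. For tested genes at or above 50 CPM per kb, where Fasn and Acly lay, the share was 60.1% and the median -0.56. Fasn, the synthase that assembles palmitate, stood at 3487 and 5709 CPM in Ctrl 1 and 2, against 2605 and 2433 CPM in A5-CKO 1 and 2. Ctrl 2 was the high library and the A5-CKO libraries were nearly level. The log2 fold change of Fasn was -0.87 (SE 0.43, 95% interval -1.88 to 0.15, edgeR unadjusted p = 0.0839), which did not pass. Leaving out Ctrl 2 gave -0.51 and leaving out Ctrl 1 gave -1.12. The GC content and length correction gave -0.97 (edgeR unadjusted p = 0.0261). Acacb, the mitochondrial acetyl-CoA carboxylase that makes the malonyl-CoA that holds back fatty acid oxidation, gave 29.5 and 28.7 CPM in Ctrl and 16.1 and 15.7 CPM in A5-CKO. Libraries of one genotype were almost identical for this gene, and its log2 fold change was -0.87 (SE 0.34, edgeR unadjusted p = 0.0371). That p was lost with upper-quartile factors (0.0569), with total counts alone (0.151, at -0.55), with the replicate block (0.0818) and with any of the 4 libraries left out (0.0656 to 0.116). Acaca, the cytosolic isoenzyme that feeds synthesis, had 174 and 439 CPM in Ctrl and 281 and 180 CPM in A5-CKO. Acly, which cleaves citrate to acetyl-CoA, had 567 and 1362 CPM in Ctrl and 624 and 523 CPM in A5-CKO. For both of these genes only Ctrl 2 stood apart. Without Ctrl 2 the log2 fold change of Acly was -0.03 and that of Acaca 0.36, and without Ctrl 1 they were -1.19 and -0.88.

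Desaturation and elongation had the largest share of separated genes among the roles with more than 2 members. Of its 7 members 6 lay lower in both A5-CKO libraries (85.7%) and 0 lay higher, with a median log2 fold change of -0.79. Lower in both were 23.6% of all tested genes, and 60.1% of those at or above 50 CPM per kb, where the median was -0.56. Scd1, Scd2, Elovl1, Elovl5 and Fads1 were at or above that level. Scd1, the stearoyl-CoA desaturase that puts the first double bond into palmitate and stearate, had 18441 and 24125 CPM in Ctrl and 12184 and 14282 CPM in A5-CKO. It had the highest CPM of all tested genes, and the 4 libraries did not overlap by genotype. Its log2 fold change was -0.68 (SE 0.46, 95% interval -1.77 to 0.41, edgeR unadjusted p = 0.181). Scd2, a close paralog with the same reaction, had 2307 and 3042 CPM in Ctrl and 1208 and 1707 CPM in A5-CKO, and a log2 fold change of -0.87 (SE 0.40, edgeR unadjusted p = 0.0673). These paralogs lie near each other on chromosome 19 (Scd2 at 44293676 to 44306864, Scd1 at 44394450 to 44407709), and similar reads may be split between them.

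Both desaturases of polyunsaturated fatty acids had an unadjusted p under 0.05, and Fads2 kept it under more alternatives than Fads1. Fads2, the delta-6 desaturase that starts the pathway, had 191 and 253 CPM in Ctrl and 105 and 103 CPM in A5-CKO, and -1.09 on the log2 scale (SE 0.31, 95% interval -1.82 to -0.35, edgeR unadjusted p = 0.00998). Under every alternative on all 4 libraries p stayed under 0.05, and it was 0.0711 without A5-CKO 1 and 0.0731 without A5-CKO 2. Fads1, the delta-5 desaturase that follows it, had 292 and 524 CPM in Ctrl and 228 and 187 CPM in A5-CKO, with -0.98 (SE 0.39, edgeR unadjusted p = 0.0413). For Fads1 that p was lost with upper-quartile factors (0.0538), total counts alone (0.125, at -0.64) and the replicate block (0.0938). It was lost too without A5-CKO 1 (0.101), without A5-CKO 2 (0.19) and without Ctrl 2 (0.163), where the log2 fold change was -0.54. For both genes each A5-CKO library was below each Ctrl library. Elovl1, an elongase of saturated very long chains, had 2330 and 3621 CPM in Ctrl and 1665 and 1770 CPM in A5-CKO, and a log2 fold change of -0.79 (SE 0.41, edgeR unadjusted p = 0.0934), or -0.48 without Ctrl 2. Elovl5, an elongase of polyunsaturated chains, was also lower in both A5-CKO libraries, at -0.37 on the log2 scale. Elovl6, the elongase that takes palmitate to stearate, was close to the limit of detection with 17, 7, 33 and 22 counts, and its groups overlapped with a log2 fold change of 0.78 (SE 0.79).

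**Figure D3:**
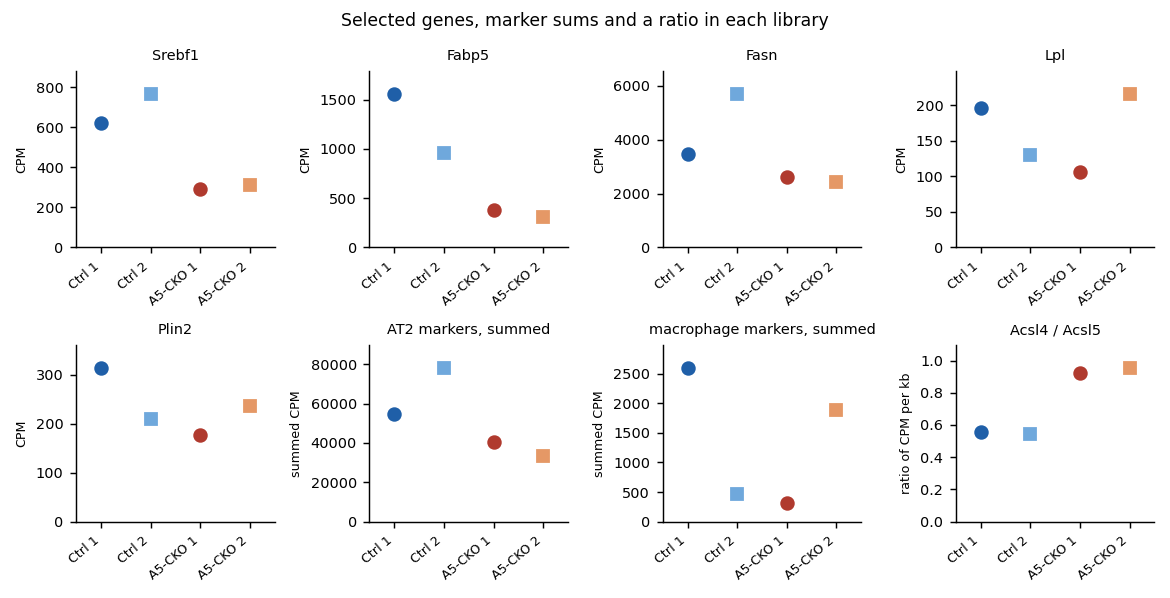
CPM in each of the 4 libraries for Srebf1, Fabp5, Fasn, Lpl and Plin2, with the summed AT2 and macrophage markers and the ratio of Acsl4 to Acsl5 in CPM per kb, 1 panel each and 1 point a library. Srebf1 and Fabp5 have both A5-CKO points below both Ctrl points, and Lpl and Plin2 do not. The macrophage sum is highest in Ctrl 1 at 2594 CPM, of which Chil3 alone makes up 2082 CPM.

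Fabp5, the epidermal-type fatty acid binding protein that carries long chains in the cytosol, showed the largest difference of all members. The gene lies on chromosome 3 (10012585 to 10016610), and no other RefSeq gene overlaps it. It stood at 1561 and 961 CPM in Ctrl 1 and 2, against 383 and 313 CPM in A5-CKO 1 and 2. Ctrl 1 was the high library, and the groups did not overlap. The means were 1261 ± 424 CPM and 348 ± 49.3 CPM (SD, n = 2 each), a level 0.276 times that of Ctrl, with a log2 fold change of -1.85 (SE 0.40, 95% interval -2.81 to -0.90, edgeR unadjusted p = 0.00253, adjusted p = 0.528). DESeq2 on default filtering gave an adjusted p of 0.00724. Leaving out each library in turn kept the unadjusted p under 0.05 for this gene, with log2 fold changes from -2.21 to -1.41. Fabp5 is also made by macrophages. Ctrl 1 had both the highest sum of macrophage markers (2594 CPM) and the highest Fabp5, and Chil3 alone made up 2082 CPM of that sum. Of the other markers, Cd68, Siglecf, Ear2 and Fabp4 were highest in Ctrl 1. Mrc1, Csf1r, Adgre1 and Marco were highest in A5-CKO 2, and Ptprc in A5-CKO 1. The summed macrophage markers were at 471 CPM in Ctrl 2, 315 CPM in A5-CKO 1 and 1887 CPM in A5-CKO 2, which had the lowest Fabp5. The part of macrophage RNA in the result was not tested.

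Of the acyl-CoA synthetases, which activate fatty acids for use, none was past the unadjusted threshold. Acsl5 lay lower in both A5-CKO libraries at -0.50 on the log2 scale (SE 0.36), from 801 and 893 CPM in Ctrl to 708 and 490 CPM in A5-CKO. Acsl3 was lower in both as well, at -0.28. Acsl4, which prefers arachidonate, had 495 and 540 CPM in Ctrl and 724 and 520 CPM in A5-CKO, and Acsl1 was at -0.02 on the log2 scale, both with overlapping groups. Per kb of exon, the ratio of Acsl4 to Acsl5 within a library was 0.556 and 0.544 for Ctrl, against 0.920 and 0.954 for A5-CKO. This ratio does not depend on the scaling of the library and was higher in both A5-CKO libraries, and it was singled out after its values were seen.

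The glycerolipid backbone is made by acyltransferases and by the lipins, which release diacylglycerol from phosphatidate. Agpat2, which adds the second acyl chain to make phosphatidate, had 136 and 148 CPM in Ctrl and 61.7 and 83.7 CPM in A5-CKO. The groups were well apart, and the log2 fold change was -0.97 (SE 0.30, 95% interval -1.69 to -0.25, edgeR unadjusted p = 0.0157). The value was -0.60 (edgeR unadjusted p = 0.0691) with GC content and length corrected and -0.65 (edgeR unadjusted p = 0.0698) with total counts alone, and the p was 0.151 without A5-CKO 1. Agpat3 was lower in both A5-CKO libraries, at -0.45. Gpam, which adds the first chain, had 204 and 506 CPM in Ctrl and 248 and 166 CPM in A5-CKO, and Lpin1 was at -0.34, with overlapping groups for both. Lpin2 lay the other way, at 128 and 250 CPM in Ctrl and 274 and 289 CPM in A5-CKO, and 0.58 on the log2 scale (SE 0.39, edgeR unadjusted p = 0.188). Leaving out Ctrl 2 gave 1.10 (edgeR unadjusted p = 0.0221), leaving out Ctrl 1 gave 0.23, and total counts alone gave 0.91 (edgeR unadjusted p = 0.0466). The ratio of Lpin2 to Lpin1 per kb, also singled out after its values were seen, was 3.23 and 3.64 for Ctrl, against 6.0 and 7.26 for A5-CKO.

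Phosphatidylcholine synthesis and remodelling, with 8 members, was mixed. No member was past the unadjusted threshold. In both A5-CKO libraries 3 were lower (37.5%) and 2 higher (25%), against 23.6% and 20.2% of all tested genes. The median log2 fold change was -0.12. Lpcat1, which exchanges a chain for palmitate to form the disaturated lipid of surfactant, had 2540 and 4710 CPM in Ctrl and 2142 and 1895 CPM in A5-CKO. Its log2 fold change was -0.84 (SE 0.45, edgeR unadjusted p = 0.102), and Ctrl 2 was the high library. Without Ctrl 2 the value was -0.37, and without Ctrl 1 it was -1.16 (edgeR unadjusted p = 0.0429). Lpcat3, which inserts polyunsaturated chains, had 201 and 185 CPM in Ctrl and 106 and 141 CPM in A5-CKO, with -0.65 (SE 0.31, edgeR unadjusted p = 0.0744). Estimates for the steps of the Kennedy pathway differed in sign, and none of these steps was resolved from no change. Pcyt1a, the rate-limiting enzyme that activates phosphocholine, had 155 and 206 CPM in Ctrl and 140 CPM in both A5-CKO libraries, at -0.36 on the log2 scale.

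The choline kinases, which start that pathway, had values on the higher side. Chka had 113 and 144 CPM in Ctrl and 253 and 142 CPM in A5-CKO, so the groups overlapped, with a log2 fold change of 0.62 (SE 0.38, edgeR unadjusted p = 0.145). Chkb had 39.0 and 35.6 CPM in Ctrl and 72.0 and 39.0 CPM in A5-CKO, where A5-CKO 2 exceeded Ctrl 1 by less than the printed digits. For both kinases A5-CKO 1 alone was clearly high, and without it the log2 fold changes were 0.13 for Chka and 0.06 for Chkb. Pcyt1b, the paralog of Pcyt1a, had only 10 and 4 counts in Ctrl and 14 and 20 counts in A5-CKO, and its log2 fold change of 0.85 had an SE of 0.85. Chpt1 and Cept1, which join choline to diacylglycerol, were at 0.11 and -0.35 with overlapping groups.

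Triglyceride synthesis, storage and lipolysis had 1 separated gene among 5 (20%, against 23.6% of all tested genes lower in both), the smallest share of any role. That gene was Pnpla2, the lipase that begins breakdown of stored triglyceride, with 334 and 508 CPM in Ctrl and 248 and 256 CPM in A5-CKO. Its log2 fold change was -0.74 (SE 0.35, edgeR unadjusted p = 0.0727), or -0.45 without Ctrl 2. Dgat1, which makes triglyceride from diacylglycerol, was at -0.29, and Plin2, a coat protein of lipid droplets, at -0.34, both with overlapping groups. Lpl, the lipase that frees fatty acids from circulating lipoproteins, had 196 and 130 CPM in Ctrl and 106 and 216 CPM in A5-CKO, and -0.01 on the log2 scale (SE 0.43, 95% interval -1.02 to 1.00). Differences of Lpl inside these bounds were not detectable with these libraries. Of the members, only Plin2 ranked the libraries in the order of their summed macrophage markers, a sum that rested largely on Chil3. How many of all tested genes share that order was not counted, and the part of macrophage RNA in the Plin2 level was not tested. Dgat2, the unrelated enzyme of the same step as Dgat1, had 5.55 and 13.4 CPM for Ctrl and 3.84 and 14.7 CPM for A5-CKO, so that it followed the replicate number and not the genotype, and its log2 fold change was -0.03 (SE 0.74).

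Both genes of the phosphatidylglycerol branch lay lower in both A5-CKO libraries, as did 23.6% of all tested genes. At or above 50 CPM per kb, where Pgs1 lay, 60.1% of tested genes did, and under that level, where Crls1 lay, 21.6% did. Pgs1, which makes the phosphate form of phosphatidylglycerol, a minor surfactant lipid and the precursor of cardiolipin, had 329 and 421 CPM in Ctrl and 254 and 237 CPM in A5-CKO, with a log2 fold change of -0.61 (SE 0.32, edgeR unadjusted p = 0.0998). Crls1, the cardiolipin synthase of mitochondria, was at -0.34 (SE 0.34, edgeR unadjusted p = 0.342).

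**Figure D4:**
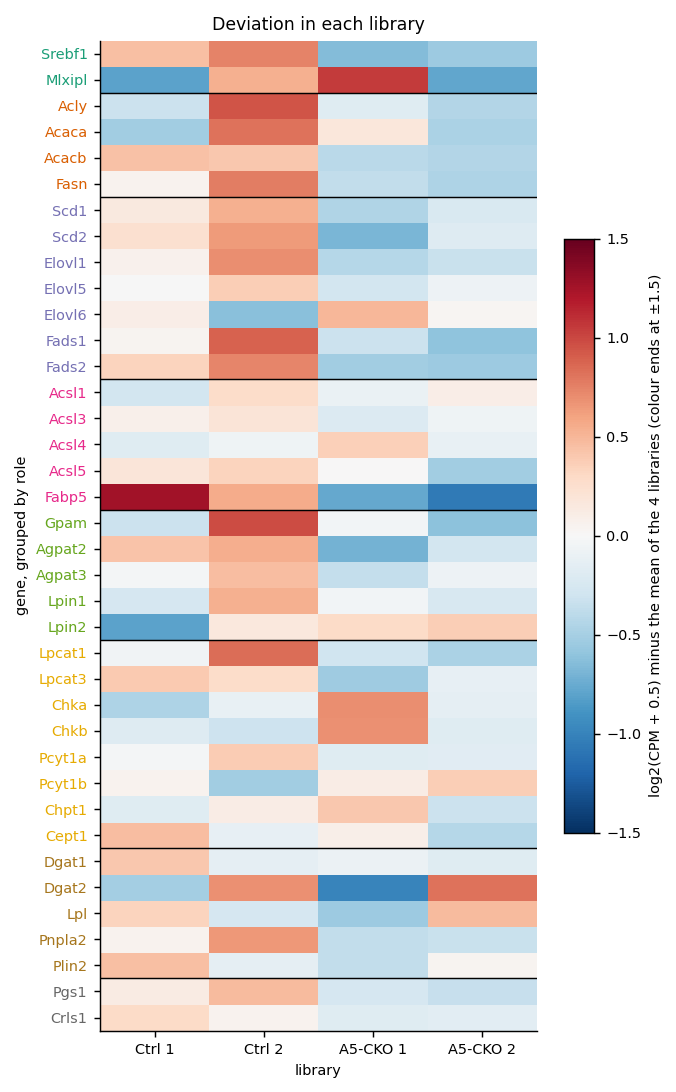
Log2(CPM + 0.5) of each member in each library minus its mean over the 4 libraries, as colour. Ctrl 2 has the most members at their highest level, 21 of 38, and A5-CKO 1 and A5-CKO 2 have the most at their lowest.

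Across members the libraries were not equal within a group. Ctrl 2 held the highest value for 21 of the 38 members, Ctrl 1 for 7, A5-CKO 1 for 6 and A5-CKO 2 for 4, whereas 28.4% of all tested genes were highest in Ctrl 2. The lowest value fell in A5-CKO 1 for 15 members and in A5-CKO 2 for 13. The median deviation from the mean of the 4 libraries was 0.44 on the log2 scale in Ctrl 2 and 0.05 in Ctrl 1, and -0.23 in both A5-CKO libraries. Ctrl 1 and Ctrl 2 differed by more than the genotypes did for 17 of the 38 members, and A5-CKO 1 and A5-CKO 2 did for 12. For 21 of the 38 this held within at least 1 group. On the log2 scale 10 members were at least 0.7 higher in Ctrl 2 than in Ctrl 1, among them Fasn, Lpcat1, Acly, Acaca and Gpam. Fasn, Fads1, Fads2, Acsl5, Lpcat1 and Pgs1 ranked the libraries in the same order as the summed AT2 markers did. Each of these genes, like the AT2 sum, was lower in both A5-CKO libraries, which by itself leaves few possible orders. The share of all tested genes with that order was not counted. The part of AT2 identity in these differences was not tested.

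Other ratios of related enzymes within a library also do not depend on its scaling. Scd1 to Scd2 per kb was 8.93 and 8.86 for Ctrl, against 11.3 and 9.34 for A5-CKO, with no overlap. Pcyt1a to Pcyt1b was 189 and 639 for Ctrl, against 160 and 119 for A5-CKO, with no overlap either, and it rested on the 4 to 20 counts of Pcyt1b in a library. The other ratios overlapped between the groups. Fads1 to Fads2 was 1.05 and 1.42 for Ctrl, against 1.48 and 1.24 for A5-CKO. Chka to Chkb was 0.739 and 1.03 for Ctrl, against 0.893 and 0.925 for A5-CKO. Acaca to Acacb was 3.33 and 8.64 for Ctrl, against 9.81 and 6.44 for A5-CKO, and here Ctrl 1 stood low. Lpcat1 to Lpcat3 was 8.90 and 17.9 for Ctrl, against 14.3 and 9.49 for A5-CKO, and here Ctrl 2 stood high.

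Further genes of the pathway, from a list of 82 were also read, and 72 passed the filter. At an unadjusted p under 0.05, 11 of the 72 were lower in A5-CKO, against 4.71% of all tested genes, and 0 were higher, against 4.48%. By separation 33 lay below (45.8%), against 23.6% of all tested genes, and 3 above, against 20.2%. The median log2 fold change was -0.38, against -0.02 for all tested genes. Cebpa, a transcription factor of AT2 cells and adipocytes, had 1044 and 1531 CPM in Ctrl and 403 and 470 CPM in A5-CKO, and -1.56 on the log2 scale (SE 0.38, edgeR unadjusted p = 0.00461). Nr1h3, the liver X receptor that activates Srebf1, had 46.0 and 42.3 CPM in Ctrl and 21.4 and 20.5 CPM in A5-CKO (edgeR unadjusted p = 0.0111). Scap, which escorts SREBP for cleavage, had 189 and 218 CPM in Ctrl and 98.0 and 132 CPM in A5-CKO (edgeR unadjusted p = 0.0346). All 3 genes had non-overlapping groups. Mbtps2, one of the proteases that cleave SREBP, lay higher in both A5-CKO libraries.

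All 6 genes of acetyl-CoA and NADPH supply lay lower in both A5-CKO libraries, against 23.6% of all tested genes. The sizes differed. Me1 had 329 and 322 CPM for Ctrl, against 305 and 307 CPM for A5-CKO, at -0.09 on the log2 scale. Thrsp had only 46 and 43 counts for Ctrl, against 35 and 8 counts for A5-CKO. Acss2, which makes acetyl-CoA from acetate, had 701 and 833 counts for Ctrl, against 530 and 454 counts for A5-CKO, at -1.05 on the log2 scale. Mlycd, which removes malonyl-CoA, had 83.8 and 93.8 CPM for Ctrl, against 55.4 and 44.7 CPM for A5-CKO, at -0.83. Slc25a1, the mitochondrial citrate carrier, had 451 and 61 counts for Ctrl, against 43 and 54 counts for A5-CKO, so its log2 fold change of -2.82 (SE 0.92) rested on Ctrl 1. Genes of other steps also had non-overlapping groups. Tecr, the reductase of the elongation cycle, had 319 and 356 CPM for Ctrl, against 169 and 151 CPM for A5-CKO, at -1.08. Pcyt2, the ethanolamine counterpart of Pcyt1a, had 145 and 136 CPM for Ctrl, against 91.1 and 49.2 CPM for A5-CKO, at -1.0. Of lipolysis and storage, Abhd5 and Plin3 had Ctrl libraries that were nearly level. Abhd5, the activator of Pnpla2, had 210 and 203 CPM for Ctrl, against 112 and 120 CPM for A5-CKO, at -0.83. Plin3, a droplet coat protein, had 202 and 201 CPM for Ctrl, against 111 and 123 CPM for A5-CKO, at -0.78.

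**Figure D5:**
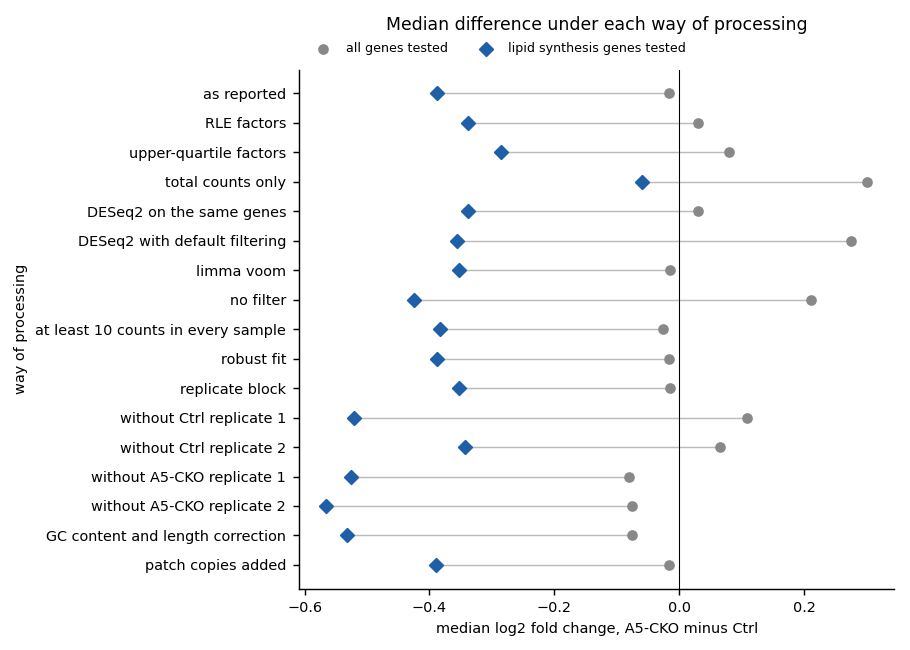
Median log2 fold change of A5-CKO against Ctrl over the members and over all tested genes, 1 line for each way of processing. The members' median lies below that of all genes on every line, at -0.39 against -0.02 as reported and at -0.06 against 0.30 with total counts alone.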

How the data were processed

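AT2 cells were sorted by FACS on GFP, RNA was extracted with Trizol, and libraries were made with a SMARTER mRNA-seq kit. The authors made the deposited counts by trimming with Trim Galore 0.6.10, removal of ribosomal reads, alignment with HISAT2 2.2.1 to mm10, removal of duplicates and counting with featureCounts 2.0.3. The counting is described in their methods beside MeRIP-seq and was taken here to hold for RNA-seq. The unit is whole read counts per gene, 18144865 to 20811757 a library, and neither the strand setting nor pooling of animals was given in the sources used here.

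edgeR 4.0.16 in R 4.3.3 was fitted to all 4 libraries with TMM factors, filterByExpr and glmQLFTest, with Benjamini-Hochberg adjustment over 16661 genes. The SE is the log2 fold change over the root of the F statistic. CPM used TMM-scaled totals, and CPM per kb used merged exon lengths from GENCODE M21. Alternatives were RLE, upper-quartile and no factors, DESeq2 1.42.0, limma voom 3.58.1, 2 filters, a robust fit, the replicate number as a block, and each library left out. The GC content and length correction (15237 genes, splines with 4 degrees of freedom) was 1 of them. Separation under other scalings, and the split by level, were added after seeing the data. The fits were run on simulated data at the common dispersion of these libraries (0.173) and at a lower one. Recovery of the changed genes was required only at the lower dispersion.

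The 38 members, the further pathway genes and the markers were chosen with earlier results of these data known. Values in every library are given for members with an unadjusted p under 0.05. They are also given for members separated by genotype with a log2 fold change of at least 0.5 in size. The member of each role with the highest level per kb was added. The further genes named are those with the 10 smallest p (Slc25a1 and Acss2 as raw counts), with Mbtps2, Me1 and Thrsp. A gene named outside this rule was chosen once its values were known. Promoter windows are from RefSeq on GRCm38.p6.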

Additional observations from a re-analysis of the deposited data

How the results depend on the processing

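The 6 members with an unadjusted p under 0.05 kept a negative log2 fold change under every alternative run. DESeq2 put 64 of the same genes past the adjusted threshold, and 59 with its own filter, against 0 in edgeR, and the call of Fabp5 was gained in both, at -1.82 (adjusted p = 0.00414) and -1.83 (adjusted p = 0.00724). The members with an unadjusted p under 0.05 numbered 6, and from 1 to 9 as each library was left out: 9 without Ctrl 1, 5 without Ctrl 2, 1 without A5-CKO 1 (Fabp5) and 2 without A5-CKO 2 (Agpat2 and Fabp5). Those counts hold members of either direction, and Lpin2 was higher without Ctrl 2 (log2 fold change 1.10). Total counts as the scale gave 13 members below, a median over the members of -0.059 and 4 further pathway genes in place of 11. On that scale 3 members were lower and 2 (Chka and Lpin2) higher at an edgeR unadjusted p under 0.05. Of all tested genes 171 were lower and 1706 higher there. The median was -0.57 to -0.34 as each library was left out, and the further pathway genes numbered 2 to 14, with 2 when A5-CKO 2 and 6 when A5-CKO 1 was left out. With GC content and length corrected, 24 members lay below and 2 above, against 25.0% and 15.1% of tested genes, and the median was -0.53. With the replicate block, 4 members, 5 further pathway genes and 754 of all genes had an unadjusted p under 0.05, against 6, 11 and 1530. Deviations from the group means correlated at -0.36 between libraries of the same number (16661 genes), so the numbers were not taken to pair the libraries. Genes near the limit of detection, Pcyt1b and Elovl6, are limited by depth.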

Other observations

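Some values did not follow the genotype, and were singled out after they were seen. The ratio of Dgat1 to Dgat2 per kb was 10.1 and 2.89 for Ctrl, against 10.4 and 2.55 for A5-CKO, so that it took the replicate number's order in both groups. Lipa, the lysosomal acid lipase, had 86.3 and 19.9 CPM in Ctrl and 18.9 and 83.9 CPM in A5-CKO, in which Ctrl 1 and A5-CKO 2, the libraries with the most macrophage markers, stood high. Scd3, a desaturase paralog, had 1.65 and 25.7 CPM in Ctrl and 5.87 and 2.35 CPM in A5-CKO.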
